A study of Homo sapiens with 12 samples.

Results

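The SLC25A genes encode the mitochondrial carrier family, and the 47 protein-coding genes whose symbol starts with SLC25A, leaving out SLC25A20, were examined out of 19974 protein-coding genes on chromosomes 1 to 22 and X. The question was where PPARγ sites lie around them, and what becomes of these sites when a pair of neighbouring lysines of the receptor is replaced by glutamine. A peak was assigned to a gene if its summit lay inside the gene or within 50 kb of either end (hg38). A peak of a pooled list is called reproducible if it was overlapped by at least 1 bp in both libraries of its group.

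All cells were MCF10A-NeuT, which is MCF10A, a line of human breast epithelium, after transformation by NeuT. Retrovirus made in HEK-293T cells from pMSCV-IRES-GFP had given them stable expression of an added receptor. The groups used here were PPARγ ChIP from cells with PPARg K154/155Q (KQ, 2 libraries) and PPARγ ChIP from cells with PPARg Wt (wild type, 2 libraries). ChIP from the control cells, and input from any group, was not analysed here. The antibody is given as anti-PPARγ in the sample labels but as anti-Flag in the series' design text, and an antibody to PPARγ does not tell an added receptor from one of the cells' own. Whether these cells make their own was not tested. The design text calls the mutant acetylation deficient. Whether libraries of a group came from separate cultures is not stated, so p-values measure a spread that may be technical. Peak lists hold no expression values, and the cell type was not checked against its markers.

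Mitochondrial carriers move metabolites, nucleotides, cofactors and ions across the inner mitochondrial membrane, and so join cytosolic and mitochondrial metabolism. PPARγ is a nuclear receptor that binds DNA as a heterodimer with RXR and is known for switching on genes of fat storage and fatty acid use. Its classical element is a direct repeat of the hexamer AGGTCA spaced by a single base.

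The SLC25A genes had PPARγ peaks in both groups at shares close to or below those of all protein-coding genes. With KQ, a reproducible peak lay near 1 of the 47 (2.13%), where the share over all protein-coding genes was 2.68%. With wild type, it was 14 of 47 (29.8%), and 37.7% over all genes. In the pooled lists, reproducible or not, 6 of 47 (12.8%) had a KQ peak and 27 of 47 (57.4%) had a wild-type peak, where the shares over all genes were 16.4% for KQ and 67.1% for wild type. The exact binomial interval of each of these 4 shares, which covers counting error only, included the share over all genes. The median gene span was 26.6 kb for the family and 24.2 kb for all genes. All 6 genes with a pooled KQ peak were among the 14 with a reproducible wild-type peak. That overlap was not counted over all genes. Of all pooled KQ peaks, 80.4% overlapped a pooled wild-type peak.

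**Figure D1:**
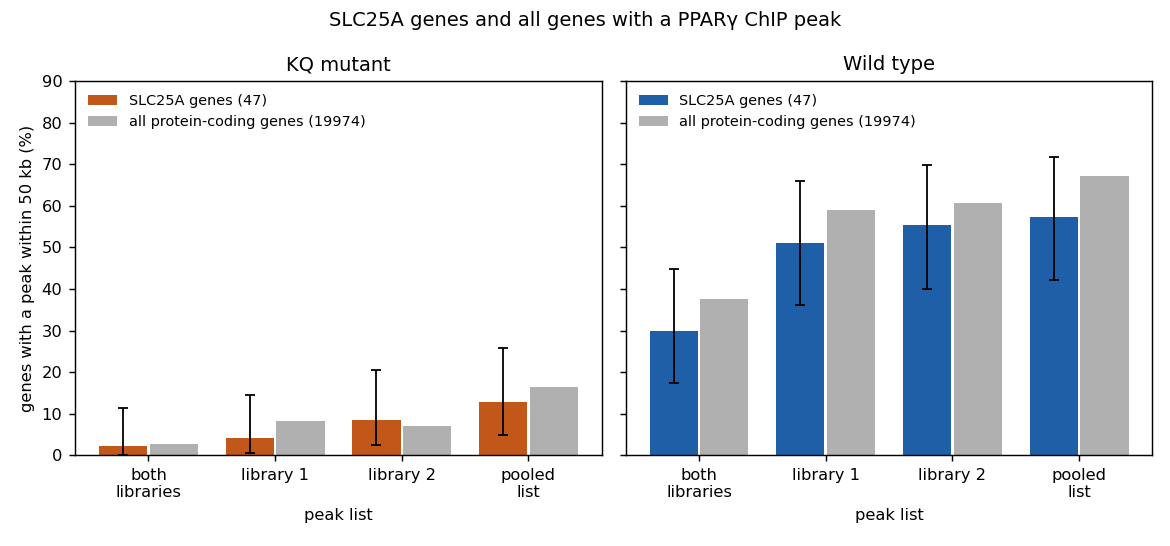
Percent of genes with a peak within 50 kb (y axis) in the reproducible set, in each library and in the pooled list (x axis), for the 47 SLC25A genes (coloured bars, KQ left, wild type right) and for all 19974 protein-coding genes (grey bars). Error bars are 95% exact binomial intervals over the 47 genes and cover counting error only; the grey bars lie inside them in every list.

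Fewer SLC25A genes had a peak with KQ than with wild type in every library. KQ library 1 had a peak at 2 genes, SLC25A4 and SLC25A18 (4.26%, against 8.35% of all genes), and KQ library 2 at 4 genes, SLC25A11, SLC25A16, SLC25A18 and SLC25A22 (8.51%, against 6.99%). Wild-type library 1 had a peak at 24 genes (51.1%, against 58.9%) and wild-type library 2 at 26 (55.3%, against 60.7%). The means were 3 ± 1.41 genes for KQ and 25 ± 1.41 for wild type (SD, n = 2 each), a difference of -22. The groups did not overlap, and the exact permutation test, two-sided, gave p = 0.333 with n = 2 per group, the smallest value it allows. Counted as distinct peaks, 2 and 4 lay near SLC25A genes in the KQ libraries, against 52 and 51 in the wild-type libraries, a difference in means of -48.5 (exact permutation p = 0.333).

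This difference moved with list length. The KQ libraries held 1263 and 1035 peaks on these chromosomes and the wild-type libraries 18143 and 17859. Peaks near SLC25A genes made up 0.158% and 0.386% of the KQ lists, against 0.287% and 0.286% of the wild-type lists. In the pooled lists they made up 0.316% of 2846 KQ peaks and 0.294% of 25164 wild-type peaks. The ratio of KQ to wild-type peaks was 0.122 near SLC25A genes and 0.113 over the whole pooled lists. When each wild-type library was shortened by q to its 1035 strongest peaks, 3 and 5 SLC25A genes had a peak (6.38% and 10.6%, against 8.16% and 8.15% of all genes), and the difference in means was -1 (exact permutation p = 0.667). Of the reproducible wild-type peaks, the 354 strongest, as many as KQ had, lay near SLC25A4 and SLC25A33, which is 4.26% of the family and compares with 3.25% of all genes.

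The wild-type sites near SLC25A genes recurred between libraries about as often as wild-type sites in general. Of 9 pooled KQ peaks near the family, 1 was reproducible (11.1%, 95% exact binomial interval 0.281 to 48.2), against 12.4% of the whole KQ list. Of 74 pooled wild-type peaks, 23 were reproducible (31.1%, interval 20.8 to 42.9), against 31.9% of the whole list. Of the other wild-type peaks, 25 were found in library 1, 10 in library 2 and 16 in neither single list. Requiring overlap with the remaining library alone gave 22.2% and 2 genes without KQ library 2, and 44.4% and 4 genes without KQ library 1. It gave 64.9% without wild-type library 2 and 44.6% without wild-type library 1.

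All 9 pooled KQ peaks near SLC25A genes overlapped a pooled wild-type peak, as did 80.4% of the whole KQ list. Summits of the overlapping peaks lay 3 to 83 bp apart, with a median of 29 bp. A pooled KQ peak overlapped 7 of the 23 reproducible wild-type sites (30.4%, 95% exact binomial interval 13.2 to 52.9), against 20.1% of the 8033 reproducible wild-type peaks in all. Fold enrichment is the authors' ratio of tags at the summit to the caller's background. Its wild-type median was 12.3 at these 7 sites and 9.10 at the 16 without KQ overlap. Over the whole reproducible wild-type list it was 10.8 at shared and 8.74 at unshared sites. The ranges overlapped near SLC25A genes, from 7.42 to 19.7 for the 7 sites and from 6.36 to 14.8 for the 16. The share of sites with KQ overlap was 15.4% (2 of 13) in a 5 kb window, below 20.1%. It was 18.8% (9 of 48) without wild-type library 2 and 21.2% (7 of 33) without wild-type library 1. These looser sets required a single library, and the whole-list share was not counted for them. Over all pooled wild-type peaks it was 12.2% (9 of 74) near the family and 9.1% in the whole list.

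**Figure D2:**
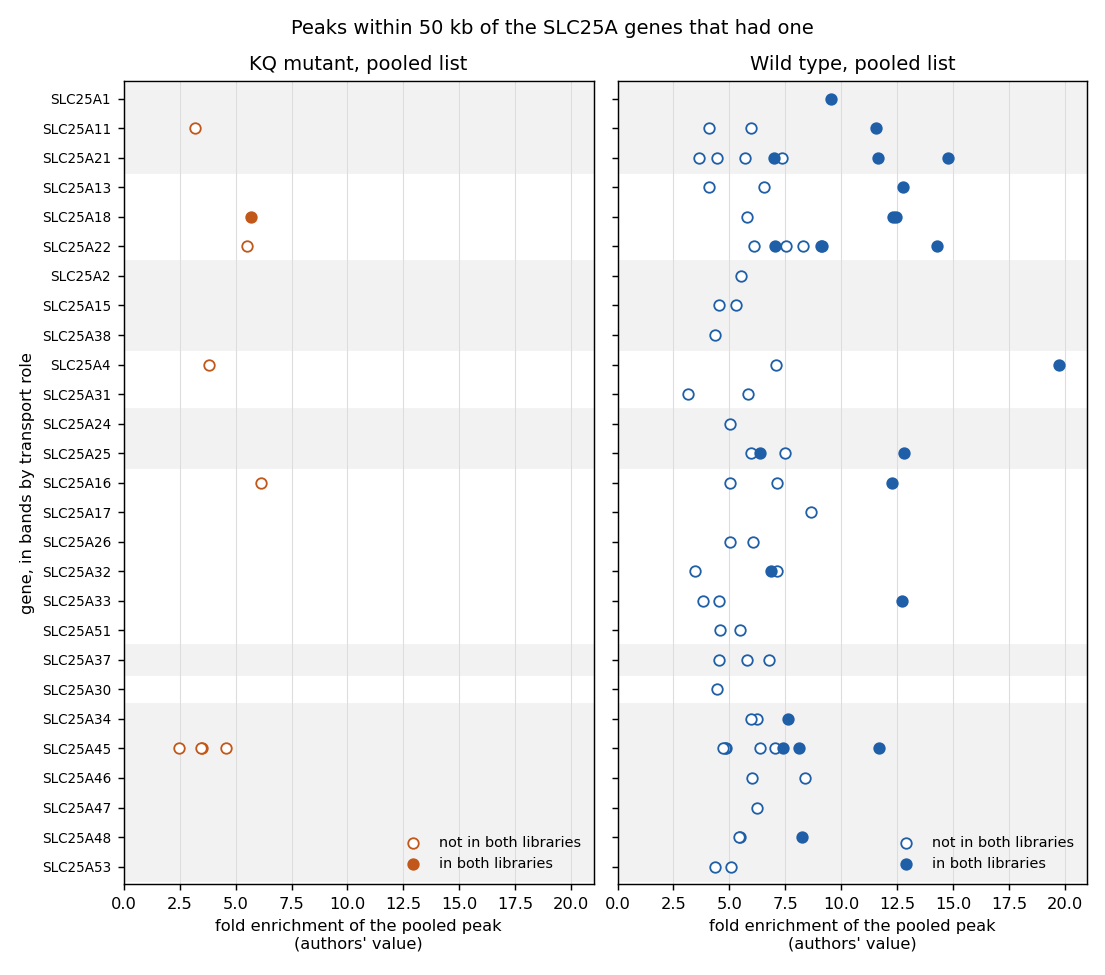
Fold enrichment of every pooled peak (x axis, authors' value) within 50 kb of the 27 SLC25A genes that had one (y axis, in bands by transport role), KQ left and wild type right; filled points are peaks found in both libraries of the group. The filled KQ point is at SLC25A18 (5.70), and the wild-type points reach 19.7 at SLC25A4.

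Tags at each summit and the background behind them were recovered from the deposited fold and p of a peak, on the assumption that fold is tags plus 1 over background plus 1 and that p is a Poisson tail. Whole numbers of tags came out for 100% of the peaks in all 6 lists, within 0.01 of the deposited −log10 p. The median pooled peak near an SLC25A gene had 30 tags over a background of 6.86 with KQ and 19 tags over 2.37 with wild type. The same medians over the whole lists were 25 over 4.12 for KQ and 18 over 1.98 for wild type. In the single lists the median background was 2.01 and 1.77 for KQ libraries 1 and 2, and 1.41 and 0.448 for wild-type libraries 1 and 2. The pooled KQ background near the family was thus above that of its list. Folds of lists with unlike backgrounds are set side by side here without a ratio.

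**Figure D3:**
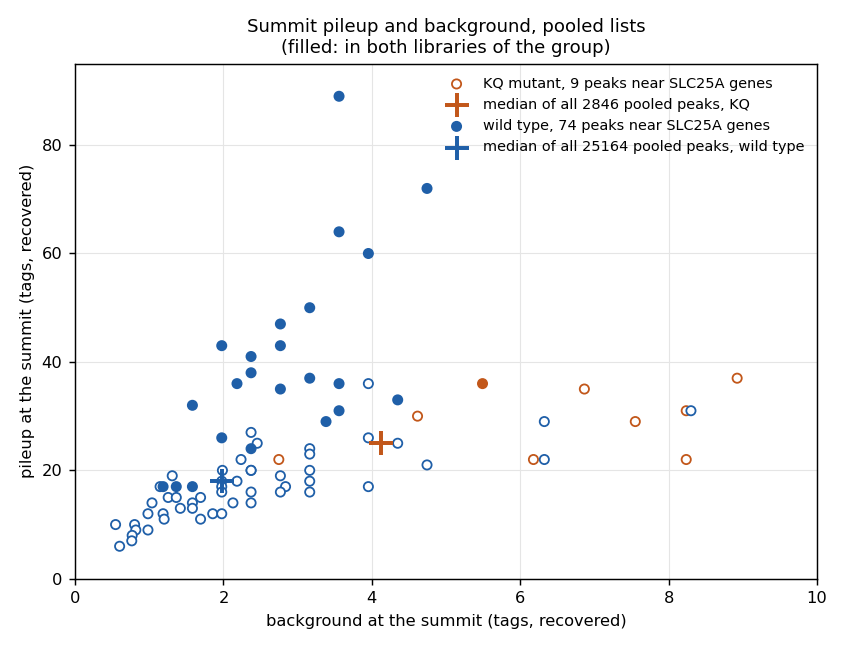
Recovered tag pileup at the summit (y axis) against recovered background (x axis) for the 9 KQ and 74 wild-type pooled peaks near SLC25A genes; filled points are reproducible, and crosses are the medians of the whole pooled lists. The KQ points lie between 22 and 37 tags, and the highest wild-type point is the SLC25A4 site with 89 tags over a background of 3.56.

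Start sites from the RefSeq promoter table (GRCh38.p14) matched 39 of the 47 genes. SLC25A2, SLC25A16, SLC25A30, SLC25A32, SLC25A35, SLC25A37 and SLC25A41 were among those with no entry. Of the 39 promoters, from 250 bases before to 50 after the start, 0 held a pooled KQ summit, against 0.569% of 15812 protein-coding promoters. A pooled wild-type summit lay in 5 of 39 (12.8%), against 4.86% of all promoters, and a reproducible one in 1 of 39 (2.56%), that of SLC25A1, against 1.01%. No interval was computed for these promoter shares, which rest on few genes. The promoters of SLC25A25 (fold 7.47), SLC25A45 (4.69) and SLC25A11 (4.10) held a summit called in wild-type library 1 and not in library 2, and that of SLC25A13 (4.08) one called in library 2 and not in library 1. The SLC25A11 summit also lies inside RNF167, whose promoter overlaps that of SLC25A11 on the opposite strand. The SLC25A45 summit also lies inside FRMD8. The SLC25A25 summit lies inside that gene's span, so the listed start is not the outer end of the gene.

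The sequences of these promoters are shown because they are the family's promoters with a wild-type summit, 51 to 234 bases before the listed start. The promoter of PNPLA2 was added as the reproducible promoter site in the SLC25A22 window. Each line gives the 250 bases before the start from RefSeq (GRCh38.p14), 5′ to 3′ on the gene's strand, and capitals mark the summit base with 10 bases on each side. The regions are chr22:19178737-19178986 (SLC25A1, minus strand), chr11:818664-818913 (PNPLA2, plus), chr9:128098257-128098506 (SLC25A25, plus), chr11:65382647-65382896 (SLC25A45, minus), chr17:4940047-4940296 (SLC25A11, minus) and chr7:96322099-96322348 (SLC25A13, minus).
SLC25A1: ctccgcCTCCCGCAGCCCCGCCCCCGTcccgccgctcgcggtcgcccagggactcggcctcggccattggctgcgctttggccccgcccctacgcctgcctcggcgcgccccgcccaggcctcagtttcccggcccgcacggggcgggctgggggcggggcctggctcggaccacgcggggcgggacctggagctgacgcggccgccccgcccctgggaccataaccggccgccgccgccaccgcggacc
PNPLA2: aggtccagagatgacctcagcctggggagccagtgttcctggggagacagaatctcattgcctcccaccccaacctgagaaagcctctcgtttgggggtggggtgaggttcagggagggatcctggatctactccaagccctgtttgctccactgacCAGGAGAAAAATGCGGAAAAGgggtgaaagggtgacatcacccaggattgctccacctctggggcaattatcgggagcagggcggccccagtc
SLC25A25: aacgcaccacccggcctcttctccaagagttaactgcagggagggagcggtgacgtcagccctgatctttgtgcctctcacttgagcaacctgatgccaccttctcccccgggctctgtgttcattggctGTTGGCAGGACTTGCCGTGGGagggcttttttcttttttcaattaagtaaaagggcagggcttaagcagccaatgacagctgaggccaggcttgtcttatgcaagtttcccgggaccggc
SLC25A45: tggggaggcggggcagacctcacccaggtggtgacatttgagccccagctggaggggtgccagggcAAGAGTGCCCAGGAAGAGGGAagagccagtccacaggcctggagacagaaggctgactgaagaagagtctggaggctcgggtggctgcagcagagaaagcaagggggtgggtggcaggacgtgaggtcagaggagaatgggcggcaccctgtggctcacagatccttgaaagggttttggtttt
SLC25A11: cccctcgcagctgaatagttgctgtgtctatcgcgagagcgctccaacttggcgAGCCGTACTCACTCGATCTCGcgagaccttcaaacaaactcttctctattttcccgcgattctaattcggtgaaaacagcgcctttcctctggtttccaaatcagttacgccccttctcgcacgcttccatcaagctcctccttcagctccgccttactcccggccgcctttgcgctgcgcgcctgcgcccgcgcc
SLC25A13: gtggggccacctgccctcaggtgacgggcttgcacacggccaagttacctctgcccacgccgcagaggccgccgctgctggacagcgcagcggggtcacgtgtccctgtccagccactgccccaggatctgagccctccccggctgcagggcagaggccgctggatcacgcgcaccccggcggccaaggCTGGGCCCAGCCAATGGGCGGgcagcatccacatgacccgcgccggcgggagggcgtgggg

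The promoters were searched on both strands over 300 bases for a direct repeat of AGGTCA with any 1 base between the copies, allowing up to 2 mismatches in the 12 fixed letters, and for the hexamer AGGTCA alone, which is part of the repeat. The SLC25A1 promoter, where the reproducible summit lies 234 bases before the start, has a GC content of 80.3% and held neither, and those of SLC25A25, SLC25A11 and SLC25A13 held neither. SLC25A45 held a match with 2 mismatches, AGGTCAGAGGAGA, which begins 61 bases before the start and lies 119 bp from the summit. PNPLA2 held the hexamer on the opposite strand, 153 bp from its summit. The repeat was found in 1 of 39 SLC25A promoters (2.56%), in 2.49% of all 15812 promoters and in 5.72% of the 769 promoters with a pooled wild-type summit. The hexamer was found in 7.69%, 11.7% and 13.4% of the same 3 sets. A match describes these letters only, and the sequences under the peaks away from promoters were not analysed here.

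The phosphate and ADP/ATP carriers held the highest wild-type peak of the family. SLC25A4 (chr4, span 7.12 kb) encodes an ADP/ATP exchanger of heart and muscle that lets mitochondrial ATP out in return for ADP. Its leading site lay 31.0 kb before the start of the gene, between genes, with SLC25A4 as the nearest protein-coding gene (wild-type peak chr4:185111990-185112416). The KQ peak there had a fold of 3.83 with 37 tags over a background of 8.92, against 19.7 with 89 tags over 3.56 for wild type. The site was called in KQ library 1 (fold 4.02, 23 tags) and not in KQ library 2, and in both wild-type libraries (13.6 and 16.9, with 68 and 29 tags). Its −log10 q was 7.91 with KQ and 84.0 with wild type, and it ranked 2286 of 2846 by fold in the KQ list and 175 of 25164 in the wild-type list. Of the other members of this role, SLC25A31, a testis ADP/ATP carrier, had 2 wild-type peaks of up to 5.81 that were not reproducible. SLC25A3, the phosphate carrier, and SLC25A5, an ADP/ATP carrier, had no pooled peak and a single peak in a wild-type library, and SLC25A6, which lies in a region shared by X and Y, had none in any list.

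Of the 4 aspartate and glutamate carriers, 1 had a reproducible KQ peak and 3 a reproducible wild-type peak, where the shares over all genes were 2.68% and 37.7%. So few genes give no share of their own. These carriers pass amino groups across the membrane, and SLC25A12 and SLC25A13 serve the malate-aspartate shuttle. SLC25A18, a glutamate carrier on chromosome 22, held the reproducible KQ peak of the family, inside the gene and 7.65 kb after its start (chr22:17570902-17571264). That KQ peak had a fold of 5.70 with 36 tags over 5.49, and was called in both KQ libraries (4.68 and 4.67). The wild-type peak at the same place had a fold of 12.3 with 60 tags over 3.95. Its folds in the wild-type libraries were 9.69 (37 tags over 2.92) and 16.4 (30 tags over 0.896), both above the KQ folds. The KQ libraries had 24 tags over 4.35 and 18 tags over 3.07, so the backgrounds differed as well as the tags. The −log10 q, which rests on the p-value under the background after correction within its own list, was 13.1 with KQ and 44.1 with wild type. In the KQ libraries it was 6.35 and 4.49, and the site was no longer reproducible when 5 or more was required in every list. A second reproducible wild-type peak lay 0.452 kb before the start of SLC25A18 (fold 12.5, libraries 11.1 and 6.58), and no KQ list had a peak there.

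SLC25A22, the other glutamate carrier, counted 7 pooled wild-type peaks, and the 4 that were reproducible all lay at neighbouring genes. The highest was inside PNPLA2, which encodes adipose triglyceride lipase, about 23 kb before the start of SLC25A22 (chr11:821124-821532). Its KQ peak had a fold of 5.52 with 30 tags, called in KQ library 2 (6.42) and not in KQ library 1, against 14.3 with 64 tags for wild type (libraries 13.5 and 10.2). The other 3 had wild-type folds of 9.13 inside TALDO1, a pentose phosphate enzyme gene, 9.07 inside PNPLA2 and 7.02 at the promoter of PNPLA2, and no KQ overlap. SLC25A13, or citrin, had a reproducible wild-type peak inside the gene (fold 12.7, libraries 11.1 and 7.91), 0.153 kb from the miRNA gene MIR591, and no KQ peak. SLC25A12 had no peak in any list.

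Of the 4 tricarboxylic and dicarboxylic acid carriers, 0 had a reproducible KQ peak and 3 a reproducible wild-type peak (2.68% and 37.7% over all genes). SLC25A1 (chr22) encodes the citrate carrier, which exports the carbon used for fatty acid synthesis. Its 1 wild-type peak had a fold of 9.56 with 35 tags over 2.77, near-equal folds of 7.49 and 7.68 in the libraries, and a summit 234 bases before the gene's start, and KQ had no peak there. SLC25A11, the oxoglutarate/malate carrier on chromosome 17, had a site 9.89 kb before its start and inside ENO3, a muscle enolase gene. The KQ fold there was 3.20 with 22 tags over 6.18, called in KQ library 2 (4.54) and not in KQ library 1, against 11.6 with 38 tags over 2.37 for wild type (12.03 and 7.55). SLC25A21, the oxodicarboxylate carrier, has the longest span of the family (495 kb), and had no KQ peak and 7 pooled wild-type peaks. Its 3 reproducible ones lay inside the gene with folds of 14.8, 11.6 and 6.97, and the leading site had 12.5 and 11.4 in the wild-type libraries. SLC25A10, the dicarboxylate carrier, had no peak in any list.

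Among 10 carriers of nucleotides, vitamins and cofactors, 0 had a reproducible KQ peak and 3 a reproducible wild-type peak (2.68% and 37.7% over all genes). SLC25A16, linked to coenzyme A transport, had a site inside the gene (wild-type peak chr10:68492221-68492456) whose KQ fold of 6.14, with 22 tags over 2.75, was the highest KQ fold of the family. It was called in KQ library 2 (7.01) and not in KQ library 1, against a wild-type fold of 12.3 with 50 tags over 3.16 (libraries 8.88 and 8.29). The KQ and wild-type summits lay 3 bp apart. SLC25A33, a pyrimidine nucleotide carrier on chromosome 1, had a wild-type peak inside the gene with 72 tags (fold 12.7, libraries 11.8 and 11.8) and no KQ peak in any list. Its −log10 q was 53.2. SLC25A32, a folate and FAD carrier, had a reproducible wild-type peak of 6.85 located inside its neighbour DCAF13. SLC25A17 (8.66), which acts in peroxisomes, SLC25A26 (6.05), the S-adenosylmethionine carrier, and SLC25A51 (5.45), an NAD carrier, had pooled wild-type peaks that were not reproducible. SLC25A42, a coenzyme A carrier, had a peak in wild-type library 2 and none in the pooled list, while SLC25A36 and SLC25A52 had none in any list.

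The calcium-regulated ATP-Mg/phosphate carriers set the size of the mitochondrial adenine nucleotide pool. Of these 4 genes, 0 had a reproducible KQ peak and 1, SLC25A25, had reproducible wild-type peaks (2.68% and 37.7% over all genes). One peak lay 26.5 kb outside SLC25A25 and nearer to NAIF1, at 19.5 kb (fold 12.8, libraries 8.72 and 8.98). The other lay inside SLC25A25 (6.36, libraries 5.99 and 5.27), and KQ had no peak near the gene. SLC25A24 had a pooled wild-type peak of 5.04, and SLC25A23 and SLC25A41 had none in any list.

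SLC25A45, whose substrate is less well defined, held 4 of the 9 pooled KQ peaks, and none of these 4 was called in either KQ library. All lay in a stretch 35.1 to 39.1 kb outside the gene, at and next to NEAT1, a nuclear long noncoding RNA gene that is not in the family, with FRMD8 as the nearest protein-coding gene. The summit of the peak with fold 3.51 was inside NEAT1. The KQ peaks had folds of 4.58, 3.51, 3.46 and 2.49 over backgrounds of 6.86, 7.55, 8.24 and 8.24, all above the KQ list's median background of 4.12. The wild-type peaks they overlapped had folds of 7.42, 4.797, 11.7 and 7.03, and those at 7.42 and 11.7 were reproducible. The part of the high background in these KQ calls was not tested. A further reproducible wild-type peak of 8.12 (libraries 7.14 and 9.57) lay inside FRMD8, 0.895 kb outside SLC25A45, with no KQ overlap. SLC25A48, linked to choline import, had a reproducible wild-type peak inside its span (8.24, libraries 7.44 and 6.54). SLC25A34 had one 46.9 kb away (7.62, libraries 6.46 and 5.10), with FBLIM1 nearer, at 1.69 kb.

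**Figure D4:**
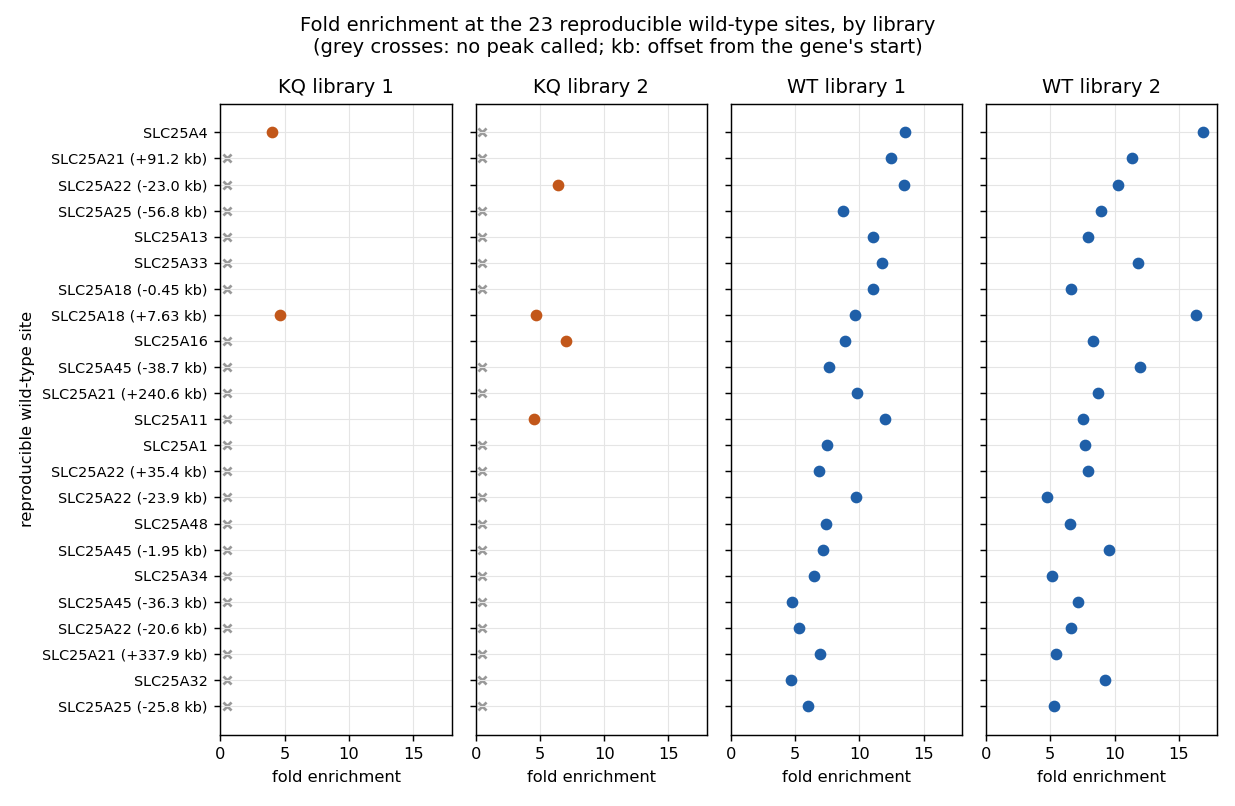
Fold enrichment (x axis, authors' value) at the 23 reproducible wild-type sites near SLC25A genes (y axis, ordered by pooled fold) in KQ libraries 1 and 2 and wild-type libraries 1 and 2; grey crosses mark sites with no peak called in that library. KQ points appear at SLC25A4 and SLC25A18 in library 1 and at SLC25A22, SLC25A18, SLC25A16 and SLC25A11 in library 2.

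The 5 amino acid, 4 iron and glutathione and 3 uncoupling-protein-like carriers had no reproducible peak in either group and no pooled KQ peak. Over all genes, 2.68% had a reproducible KQ peak, 37.7% a reproducible wild-type peak and 16.4% a pooled KQ peak. So few genes give no share of their own. Among the amino acid carriers, SLC25A2 (5.50) and SLC25A15 (5.31), both ornithine carriers, and SLC25A38 (4.38), a glycine carrier needed for heme, had pooled wild-type peaks. SLC25A29, for basic amino acids, had a peak in wild-type library 2 alone, and SLC25A44, for branched-chain amino acids, had none in any list. The iron carrier SLC25A37 had 3 pooled wild-type peaks of up to 6.77. Its paralogue SLC25A28 had peaks in the single wild-type libraries and none in the pooled list, the glutathione carrier SLC25A39 had a peak in wild-type library 1, and SLC25A40 had none. SLC25A30 had a pooled wild-type peak of 4.45, and SLC25A14 and SLC25A27 had no peak in any list. Of the remaining carriers, SLC25A46 (8.39), SLC25A47 (6.23) and SLC25A53 (5.09) had pooled wild-type peaks, SLC25A43 had a peak in wild-type library 1 alone, and SLC25A35 had none. In all, 20 of the 47 genes had no pooled peak in either group and 12 had no peak in any of the 6 lists. These 2 counts were not made over all genes. A pooled wild-type peak lay near 57.4% of the family and 67.1% of all genes.

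Over the family, the 9 pooled KQ peaks had a median fold of 3.83 and the whole KQ list 4.82, and the order of these medians rests on SLC25A45. Without its 4 neighbouring peaks, a choice made after seeing the data, the other 5 had a median fold of 5.52, a median background of 5.49 and a reproducible share of 20% (1 of 5). The reproducible wild-type peaks had a median above that of their list, and their place relative to the genes varied. Their median fold was 11.6, against 9.03 for all 8033 reproducible wild-type peaks, while the medians of all pooled wild-type peaks were 6.23 near the family and 6.14 in the list. Of the 23 reproducible wild-type peaks, 9 had their summit inside the SLC25A gene, 6 inside another protein-coding gene and 8 between genes. Another gene was nearer than the SLC25A gene for 6 of the 9 pooled KQ peaks and for 11 of these 23 wild-type peaks. In wild-type library 2 the fold was above that of library 1 at 11 of the 23 sites (47.8%), close to the 48.6% of the whole reproducible list. Gene span and the number of pooled wild-type peaks had a Spearman rho of 0.19 across the 47 genes, a description of genes that share the same lists.

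The limit of 50 kb decided some assignments. The last pooled KQ peaks inside it lay 38.6 and 39.1 kb from SLC25A45 (folds 2.49 and 3.51), and the first outside lay 57.8 kb from SLC25A34 (3.54) and 69.9 kb from SLC25A35 (8.60). The last wild-type peaks inside lay 45.8 kb from SLC25A22 (8.30) and 46.9 kb from SLC25A34 (7.62), and the first outside 50.2 kb from SLC25A51 (4.97) and 50.7 kb from SLC25A28 (6.23).

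Relatives of the family under other symbols were counted in the same way. Of UCP1, UCP2, UCP3, SLC25A20, MTCH1 and MTCH2, 2 of 6 had a reproducible KQ peak and 5 of 6 a reproducible wild-type peak (2.68% and 37.7% over all genes). Both KQ genes, UCP2 and UCP3, are uncoupling protein genes that lie side by side and rest on 1 shared site, with folds of 3.67 in the KQ list and 22.25 in the wild-type list. SLC25A20, the carnitine-acylcarnitine carrier that brings long-chain fatty acids in for oxidation, had a pooled KQ fold of up to 6.16 that was not reproducible and a reproducible wild-type peak of 21.2, 0.015 kb outside the gene. Both wild-type folds are above that of the SLC25A4 site.

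Other genes that serve the same membranes had counts that can be read against the same shares, 2.68% of all genes for KQ and 37.7% for wild type. Of 12 genes that import the carriers into the inner membrane, 0 had a reproducible KQ peak and 2 a reproducible wild-type peak, TOMM20 (11.5, at a site 35.6 kb outside the gene) and TIMM10 (6.14). Of 13 other mitochondrial membrane transporters, 1 had a reproducible KQ peak, VDAC1 (4.03), an outer membrane channel, and 7 a reproducible wild-type peak, led by ABCB10 (14.6), VDAC1 (14.3) and MPC1 (12.3), a subunit of the pyruvate carrier. The wild-type site of 14.3 at VDAC1 lay inside the gene and had no KQ overlap.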

How the data were processed

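PPARγ ChIP-seq peaks of 4 libraries were used as 6 deposited lists, 1 per library and 1 per pooled group. Bowtie2 (version 2), MACS2 and the hg38 build are named in the submitters' processing notes, while caller settings and any use of input were not given in the sources used here. Each library and each pooled group had its own list. Deposited columns are a fold enrichment over background (a ratio), −log10 of p and q, a peak score that follows the q, and the summit position, all made by the authors. Sequencing depth is unknown from these lists. Gene spans were read from RefSeq (GRCh38.p14) without exons, so introns, exons and untranslated regions were not told apart.

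Overlaps, windows and tag recovery were computed in Python 3.11.15 (pandas 2.3.3, SciPy 1.17.1, NumPy 2.4.6, figures in matplotlib 3.10.9) and tested on simulated data. Libraries were compared by exact permutation tests, two-sided. Intervals are exact binomial and cover counting error only. Gene members, role groups and related lists were chosen with earlier results of these data known. Full values were given to each gene with a reproducible peak, since 14 genes had a wild-type one and the rule took up to the 15 highest; genes with a pooled peak alone are named with their highest fold and the rest by name, apart from 1 item not reported here. The PNPLA2 promoter, the tag recovery, NEAT1 and MIR591 were added after values were seen.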

Additional observations from a re-analysis of the deposited data

How the results depend on the processing

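The KQ minus wild-type differences in genes and in peaks per library kept their sign with windows of 5 and 100 kb, with the nearest gene, with −log10 q of 5 or more, with shortened wild-type lists and without each library in turn (from -23 to -21 genes and from -49.5 to -47.5 peaks). Replicate numbers in the titles share only a number. With them as a replicate block the differences were -22 genes and -48.5 peaks (exact sign-flip permutation p = 0.5, the smallest that 2 pairs allow). Genes with a reproducible KQ peak numbered 2 with 100 kb, 0 with −log10 q of 5 or more, 6 with all pooled peaks and from 2 to 4 when either KQ library was left out. Genes with a reproducible wild-type peak numbered 22 with 100 kb, 9 with the nearest gene, 2 with the reproducible list shortened to 354 peaks, 27 with all pooled peaks and from 19 to 20 when either wild-type library was left out. The share of wild-type sites with KQ overlap was 12.2% over all pooled peaks, where the whole pooled list had 9.1%. It was 15.4% at 5 kb and from 18.8% to 21.2% without either wild-type library. The reproducible share was 50% for KQ at 5 kb (1 of 2 peaks), 0% for KQ with −log10 q of 5 or more (0 of 7) and from 22.2% to 44.4% without either KQ library. For wild type it was 100% in the pooled list shortened to 2846 peaks (12 of 12) and from 44.6% to 64.9% without either wild-type library. A wider window, a stricter q, a shorter list and a single required library change these counts by construction. An overlap of 50% of the shorter peak changed none of them. Shortening left the KQ counts as they were. The highest fold of a named gene moved by more than the spread between its libraries for SLC25A25 and SLC25A45 at 5 kb, SLC25A25 with the nearest gene and SLC25A34 at 100 kb. Of 15 such folds, 4 had no reproducible peak left at 5 kb (wild type at SLC25A4, SLC25A11, SLC25A22 and SLC25A34). With the nearest gene 5 had none left, and with −log10 q of 5 or more 2 had none. With 9 KQ peaks near the family, these lists cannot show small differences between carriers.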
